A study of Mus musculus with 12 samples.

Results

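The expression of 47 genes of DNA replication was followed through terminal erythroid differentiation in mouse bone marrow. The genes encode the origin recognition complex, the licensing factors, the MCM helicase and its activators, the replicative polymerases, the sliding clamp, single-strand binding and flap processing proteins, and enzymes of nucleotide supply. They were chosen by name, with no measured value in the rule but with earlier results of these data known. All 47 were found among the 29838 genes of the table. Bone marrow cells of wild-type (WT) male C57BL/6 mice, 8 weeks old, were depleted of CD45+ cells and sorted as live cells negative for CD45, CD11b and GR1 and positive for Ter119. Proerythroblasts (Pro) had high CD44 and low Ter119, and basophilic (Baso), polychromatic (Poly) and orthochromatic (Ortho) erythroblasts were separated by CD44 and cell size. RNA sequencing gave 3 libraries for each of these 4 stages, 12 in all, and values are FPKM, fragment counts divided by the length of the transcript and the depth of the library. Ortho libraries 2 and 3 are labelled only as erythroblasts in their cell type field and are Ortho by their titles. Hemoglobin genes made up 52.6% and 49.1% of the summed FPKM in these 2 libraries, against 47.2% in Ortho library 1. No source used here says whether the 3 libraries of a stage came from separate mice, so the p-values measure the spread between these libraries, which may be technical.

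Replication is prepared before S phase, when the origin recognition complex (ORC), Cdc6 and Cdt1 load the hexameric MCM helicase onto origins, a step called licensing. At the start of S phase the kinase Cdc7 with its partner Dbf4 triggers the joining of Cdc45 and the GINS complex to MCM, and the active helicase then opens the fork for the polymerases, the clamp and its loader. Erythroblasts divide several times between the proerythroblast and the orthochromatic stage, then leave the cell cycle and expel the nucleus, and many S phase genes share binding words for E2F factors in their promoters.

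The promoters of a few members are shown as a description, and a link of their words to the fall from Pro to Ortho was not tested. Promoter sequences from RefSeq (GRCm38.p6, 250 bases before to 50 after the start) were matched by symbol for 39 of the 47 genes, of which 7 had several starts. The E2F words searched, on both strands, were TTTCCCGC, TTTGGCGC, TTTCGCGC and TTTGCCGC, and they can overlap each other. At least 1 of them was found in 15 of 39 members (38.5%), in 21.2% of 33 other replication genes, in 4.8% of the 8900 tested genes with a promoter and in 2.6% of all 27025 genes with one. In 9 of these members a word lay before the start. The following stretches lie outside annotated exons, and capitals mark the E2F words.
Cdc6 promoter, chr11:98907993-98908040, plus strand: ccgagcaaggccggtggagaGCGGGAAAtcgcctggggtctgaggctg
Mcm5 promoter, chr8:75109336-75109387, plus strand: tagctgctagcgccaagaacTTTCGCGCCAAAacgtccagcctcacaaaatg
Mcm6 promoter, chr1:128359725-128359835, minus strand: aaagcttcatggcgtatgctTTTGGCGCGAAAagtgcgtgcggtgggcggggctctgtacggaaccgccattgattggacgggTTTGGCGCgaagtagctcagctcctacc
Pola1 promoter, chrX:93632266-93632313, minus strand: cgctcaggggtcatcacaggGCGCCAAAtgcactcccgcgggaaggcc
Cdc6 and Pola1 carried 1 word in these stretches. Mcm5 carried 2 and Mcm6 carried 3, and 2 words overlapped in each. The promoter of Rrm2, whose mean level in Poly was above that in Pro as deposited and below it with equal sums in all libraries (0.09 and -0.09 on the log2 scale), had no E2F word in this window. It had a CCAAT box, the word bound by NF-Y, and capitals mark it in the next stretch.
Rrm2 promoter, chr12:24708184-24708228, plus strand: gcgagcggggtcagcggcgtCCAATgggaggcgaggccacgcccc
Orc1, which like Rrm2 had its highest mean in Baso, had 1 E2F word and 2 CCAAT boxes before its start. CCAAT (or ATTGG on the other strand) was found in 23 of 39 members (59.0%) and in 43.3% of tested genes. TTTGAA, the word of the cell cycle element CHR, was found in 7 members (17.9%) and in 14.7% of tested genes. The 7 were Cdc45, Cdc7, Dbf4, Fen1, Gins3, Mcm2 and Pold2. A word in a promoter is a description of its letters and does not show that a factor binds there. Members with an E2F word had a median log2 fold change of -1.94 from Pro to Ortho (n = 15, from -2.62 to -0.63), and those with a promoter but no such word had -1.91 (n = 24, from -2.51 to -0.66).

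Most replication genes were lower in Baso and Poly than in Pro, and all 47 were lower in Ortho. The median member had 26.0% of its Pro level left in Ortho, whereas the median of all 12994 genes tested was 69.3%. All 47 members passed the filter for testing, which asked for 1 FPKM or more in 3 or more libraries. Their sum was 5182 ± 219.6 in Pro, then 3657 ± 308 in Baso and 2825 ± 48.5 in Poly, and 1294 ± 20.1 in Ortho (mean ± SD of FPKM, n = 3 libraries a stage). In bulk samples, fewer cells that replicate DNA and less RNA per cell cannot be told apart. Genes were tested with limma on log2(FPKM + 1), a scale that understates the change of low genes. A gene was called at a Benjamini-Hochberg adjusted p under 0.05 over all genes tested if its log2 fold change was also 1 or more in size.

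From Pro to Baso 3 of the 47 members were called lower, against 8.54% of all genes tested, so that calls at this fold were not more common among members than among all genes. With no minimum fold, 38 members had an adjusted p under 0.05 and a lower level, against 42.1% of all genes. From Pro to Poly 22 members were called lower, against 12.8% of all genes, and 41 had a lower level at adjusted p alone, against 42.7%. From Pro to Ortho 44 members were called lower, against 23.8%, and all 47 were lower at adjusted p alone, against 53.2%. In 46 of them all 3 Ortho libraries lay below all 3 Pro libraries, which held for 53.6% of all genes. Between neighbouring stages, Poly against Baso gave 1 call lower, Fen1, against 0.454% of all genes, and 24 members lower at adjusted p alone, against 5.77%. Ortho against Poly gave 15 calls lower, against 4.81%, and 42 members lower at adjusted p alone, against 21.7%. No member was called higher in any of the 5 comparisons by limma, where 1.82% of all genes were called higher in Baso and 3.59% in Poly against Pro, 6.33% in Ortho against Pro, 0.0616% in Poly against Baso and 1.05% in Ortho against Poly. At adjusted p alone 1 member was higher in Baso than in Pro and in Poly than in Pro, Dbf4 both times, where 14.9% and 23.3% of all genes were higher. Pold2 was the 1 member higher in Poly than in Baso, where 6.58% of all genes were. These comparisons share libraries and are not independent of each other.

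The median log2 fold change of the members against Pro was -0.57 for Baso, -0.94 for Poly and -1.85 for Ortho, beside -0.23, -0.20 and -0.42 for all genes tested. It was -0.34 from Baso to Poly and -0.84 from Poly to Ortho, beside 0.03 and -0.08. The stage means fell at each of the 3 steps in 40 members (85.1%, and 24.7% of all genes). The largest of the 3 falls was the last one, from Poly to Ortho, in 29 members (61.7%, and 36.8% of all genes), the first in 16 and the middle one in 2. The highest mean was in Pro for 42 members, in Baso for Orc1, Fen1 and Rrm2, and in Poly for Cdc7 and Dbf4.

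**Figure D1:**
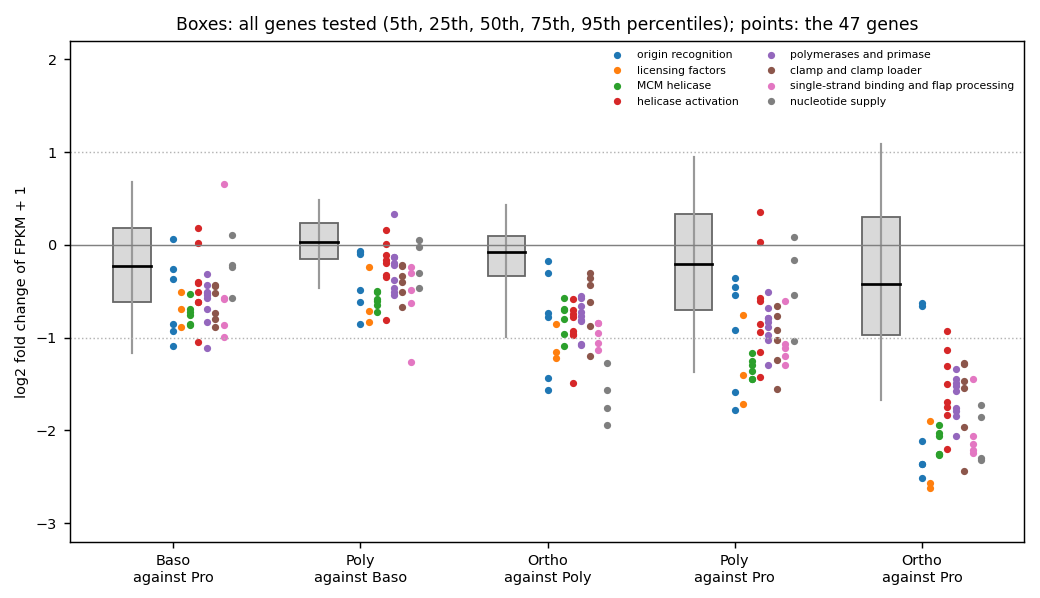
Log2 fold changes of FPKM + 1 (vertical axis) in the 5 comparisons (horizontal axis). Grey boxes and lines give the 5th, 25th, 50th, 75th and 95th percentiles of 12994 genes tested, and each point is 1 of the 47 replication genes, coloured by group; all 47 points lie below 0 in Ortho against Pro and in Ortho against Poly.

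An FPKM depends on all other transcripts in its library, and hemoglobin genes took a growing share of these. Of the summed FPKM they made up 8.45% ± 1.95 in Pro, then 35.1% ± 1.79 in Baso and 36.6% ± 1.56 in Poly, and 49.6% ± 2.74 in Ortho (SD, n = 3). The members took 1.0% ± 0.0581 in Pro, then 0.623% ± 0.060 in Baso and 0.481% ± 0.0125 in Poly, and 0.193% ± 0.00681 in Ortho. Without the hemoglobin genes the members took 1.09%, 0.960%, 0.759% and 0.384%, so that the Ortho share was still below that of each earlier stage. With hemoglobin genes left out and the libraries rescaled, the median of all genes from Pro to Ortho moved from -0.42 to -0.01 and that of the members from -1.85 to -1.38. The members' median differed from that of all genes by -1.43 as deposited and by -1.37 after this rescaling, and all 47 members stayed below 0. The calls moved more. In Ortho against Pro, 3092 genes were lower and 823 higher as deposited, and 1152 lower and 1993 higher without hemoglobin. The split was 1663 lower and 467 higher in Poly against Pro and became 741 and 1324, it was 1110 and 237 in Baso against Pro and became 420 and 488, and it was 625 and 137 in Ortho against Poly and became 469 and 188. Members called lower went from 44 to 36 in Ortho, from 22 to 9 in Poly and from 3 to 0 in Baso against Pro.

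Markers of other cells moved with the stages. The summed FPKM of 8 neutrophil genes, Elane, Mpo, Prtn3, Ltf, Camp, Ngp, S100a8 and S100a9, ranged from 6835 to 8541 in Pro, from 11752 to 13776 in Baso, from 15098 to 17888 in Poly and from 13412 to 16669 in Ortho, and none of the 8 was at 0 in all libraries. The 7 B lineage genes summed to between 59.4 and 105 in Pro and between 149.6 and 193 in Ortho, and each of the 7 had a higher mean in Ortho. The 5 T and NK cell genes summed to between 20.5 and 28.1 in Pro and between 32.6 and 37.9 in Ortho, but this sum was nearly all Nkg7 (means of 23.6 and 35.1), and the other 4, Cd3d, Cd3e, Cd3g and Ncr1, were under 1 FPKM in every library. The 6 macrophage genes summed to between 6.22 and 9.63 in Pro and between 11.2 and 12.7 in Ortho, with Adgre1 higher (3.84 and 7.85), while Vcam1 was lower (3.03 and 2.25). Of the 5 megakaryocyte and platelet genes Pf4, Ppbp, Gp9 and Gp1bb had lower means in Ortho and Itga2b a higher one (18.9 and 24.97), and their sum went from between 66.5 and 121 to between 35.8 and 45.2. The labelled lineage was present, since 5 late erythroid genes (Hbb-bt, Hba-a1, Alas2, Slc4a1 and Epb42) summed to between 18448 and 28591 in Pro and to between 146347 and 169133 in Ortho. This sum was nearly all Hba-a1 and Hbb-bt (means of 92608 and 60094 in Ortho). Each of the 5 had a higher mean in Ortho than in Pro, but Slc4a1 was highest in Baso and Epb42 in Poly. The 4 early erythroid genes moved in both directions, with sums from 107 to 136 in Pro and from 131 to 149 in Ortho. From Pro to Ortho the mean of Myc went from 34.7 to 22.7 and that of Kit from 17.8 to 14.5, while Myb went from 57.1 to 73.9 and Gata2 from 12.98 to 27.4. The part of other cells in the fall of the replication genes was not tested.

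**Figure D2:**
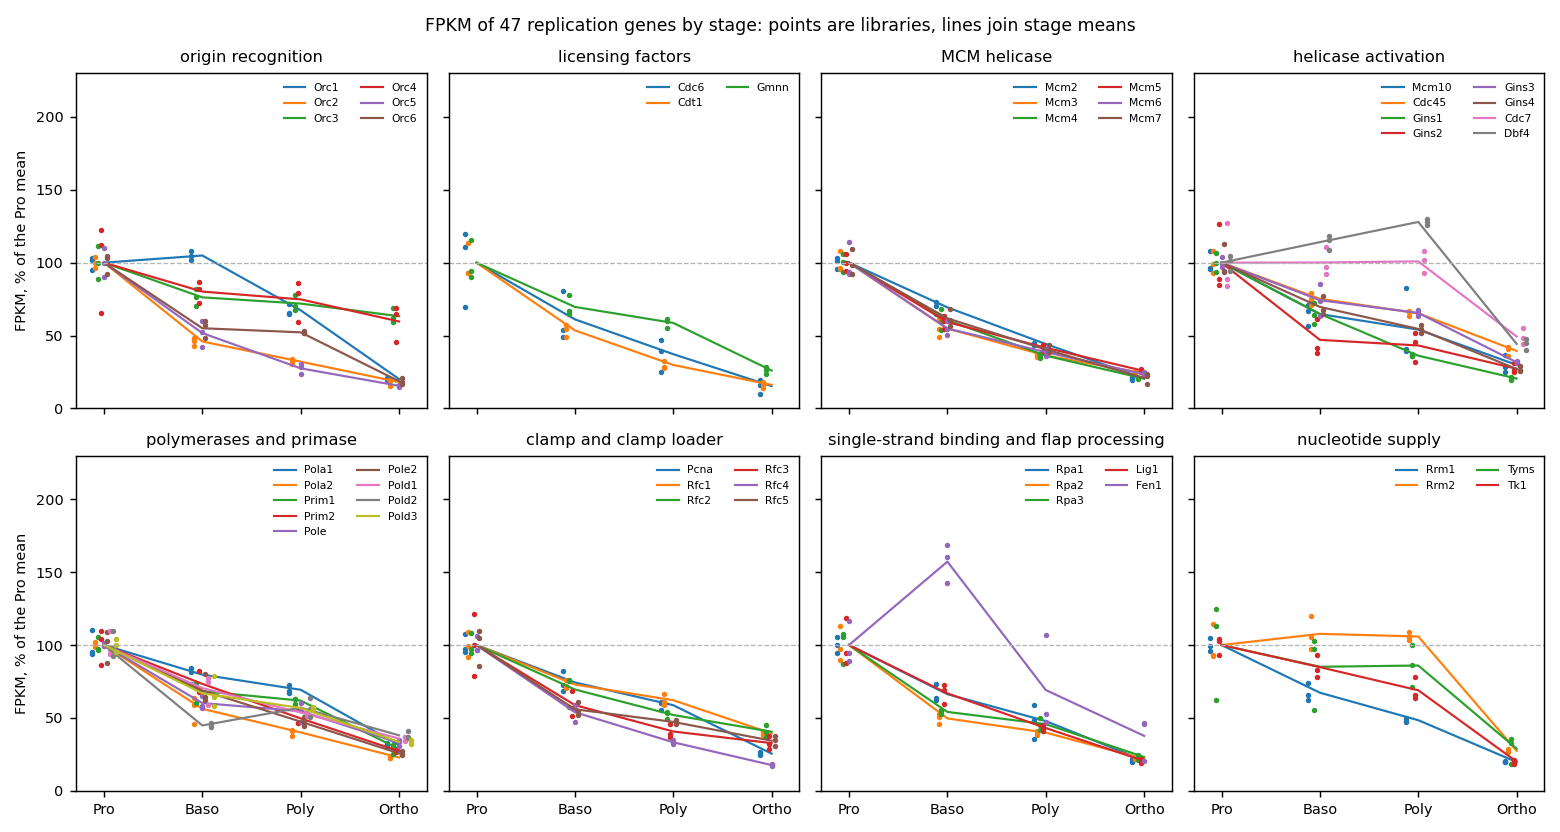
FPKM of the 47 genes as a percentage of each gene's Pro mean (vertical axis) in the 4 stages (horizontal axis), in 1 panel for each of the 8 groups. Points are libraries and lines join stage means. Of the lines, 40 fall at every step, while Orc1, Fen1, Rrm2, Cdc7 and Dbf4 have their highest mean after Pro. Among these genes only Dbf4 was above Pro at an adjusted p under 0.05 as deposited, and not with equal sums in all libraries.

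Origin recognition showed the widest range of any group, with ORC subunits that lost most of their transcript beside subunits that lost little. ORC marks the origins, and Orc1 to Orc5 share in its ring. The median change of the 6 genes from Pro to Ortho was -2.24, and 4 of 6 were called lower. Orc5 (chr5:22486485-22550429, minus strand, in mm10) had the largest fall of the group, with FPKM of 45.6, 37.5 and 41.2 in Pro, then 17.5, 21.8 and 24.9 in Baso and 9.71, 11.9 and 12.5 in Poly, and 6.76, 6.16 and 6.35 in Ortho. Its libraries separated completely between each pair of neighbouring stages, and it fell by 2.51 on the log2 scale from Pro to Ortho (SE 0.13, adjusted p = 2.46e-08). Orc3 (chr4:34570796-34614944, minus strand) had the smallest fall, with 26.1, 23.3 and 29.2 in Pro, then 20.1, 18.4 and 21.4 in Baso and 20.4, 17.7 and 18.5 in Poly, and 18.1, 16.2 and 15.5 in Ortho. The Pro libraries were the highest, but Baso and Poly overlapped, as did Poly and Ortho. Its change of -0.63 to Ortho (SE 0.1, adjusted p = 0.000132) did not reach the fold for a call. Orc4 averaged 15.6 ± 4.74 in Pro, then 12.5 ± 1.17 in Baso and 11.7 ± 2.19 in Poly, and 9.33 ± 1.94 in Ortho (n = 3 here and below), and its Pro libraries of 10.2, 17.5 and 19.2 overlapped those of Ortho. It was the 1 member with such an overlap, and its change of -0.66 had an adjusted p of 0.0163. With equal sums in all libraries its change was -1.0003 and called (adjusted p = 0.00129). Orc1, the largest subunit, whose protein is known to cycle, was not lower in Baso as deposited (it was at -0.11 against Pro with equal sums in all libraries, adjusted p = 0.279), with 25.7 ± 1.097 in Pro, then 26.9 ± 0.825 in Baso and 17.3 ± 0.923 in Poly, and 5.16 ± 0.199 in Ortho. Its largest step was the last, -1.57 from Poly to Ortho against -0.61 from Baso to Poly, and the change from Pro to Ortho was -2.11. Orc2 took the opposite course, with 53.5 ± 1.9000 in Pro, then 24.5 ± 1.49 in Baso and 17.2 ± 1.01 in Poly, and 9.65 ± 1.13 in Ortho. It fell by 1.09 already from Pro to Baso (adjusted p = 3.51e-06), which was -0.78 and no longer called without hemoglobin genes, and by 2.36 to Ortho. About 29.8% of the exonic bases of Orc2 overlap Nif3l1 on the other strand, and no source used here says whether reads were counted by strand. Orc6 averaged 90.2 ± 5.97 in Pro, then 49.6 ± 5.58 in Baso and 47.1 ± 0.775 in Poly, and 16.8 ± 1.79 in Ortho, with no further fall between Baso and Poly past the test (-0.07, adjusted p = 0.688) and a change of -2.36 from Pro to Ortho.

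The licensing factors had the lowest group median from Pro to Ortho, -2.57, and all 3 were called lower. Gmnn, at -1.904, fell less than any gene of the MCM helicase. Cdc6 (chr11:98907801-98923940, plus strand) is the ATPase that joins ORC to recruit the helicase and carries the promoter word shown above. It measured 57.9, 99.1 and 91.4 in Pro, then 44.6, 40.6 and 66.6 in Baso and 32.8, 20.6 and 39.1 in Poly, and 16.03, 8.45 and 13.5 in Ortho. The spread was wide, and Pro and Baso overlapped because Pro library 1 lay below Baso library 3, while the later stages were separate. Its change of -2.62 to Ortho (SE 0.295, adjusted p = 8.13e-06) was the largest of all members as deposited, but not without Pro library 2 (-2.48), Pro library 3 (-2.53) or Ortho library 2 (-2.38), nor with a pseudocount of 5, where Cdt1 had the larger change, and 15.3% of the Pro mean was left. Cdt1 (chr8:122568015-122573554, plus strand) brings MCM to the origin. It measured 132, 109 and 109 in Pro, then 57.2, 63.4 and 66.6 in Baso and 38.1, 32.7 and 33.5 in Poly, and 21.2, 16.2 and 19.1 in Ortho, and no stage overlapped another. It fell by 2.57 (SE 0.11, adjusted p = 8.37e-09). Gmnn (chr13:24751845-24761923, minus strand) encodes geminin, which binds Cdt1 and blocks new licensing after S phase has begun. It measured 131, 102 and 106 in Pro, then 72.98, 75.3 and 88.04 in Baso and 67.5, 62.1 and 69.4 in Poly, and 31.97, 26.6 and 29.6 in Ortho, with no overlap between stages. Gmnn fell by 1.904 (SE 0.11, adjusted p = 4.54e-08), and its largest step was the last, -1.15 from Poly to Ortho against -0.24 from Baso to Poly (adjusted p = 0.169).

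The 6 subunits of the MCM helicase fell together, with log2 fold changes from -2.26 to -1.94 between Pro and Ortho and a median of -2.16. All 6 were called lower in Ortho and all 6 in Poly against Pro, and none overlapped between neighbouring stages. Without hemoglobin genes Mcm2 (-0.82), Mcm5 (-0.91) and Mcm7 (-0.95) were no longer called in Poly against Pro, nor was Mcm2 with each library centred on its median (-0.92). Mcm2 (chr6:88883474-88898780, minus strand) measured 205, 222 and 218 in Pro, then 139.6, 151 and 157 in Baso and 93.9, 94.01 and 96.8 in Poly, and 43.9, 42.1 and 46.2 in Ortho. The 3 libraries of a stage lay close together, and the step between stages was -0.53 to Baso, -0.64 to Poly and -1.09 to Ortho. Its change from Pro to Ortho was -2.26 (SE 0.066, adjusted p = 1.16e-09). Mcm5 (chr8:75109569-75128439, plus strand), whose promoter stretch holds overlapping E2F words, measured 259, 245 and 231 in Pro, then 133, 146 and 156 in Baso and 103, 96.7 and 106 in Poly, and 65.99, 60.7 and 61.97 in Ortho. It had the smallest change of the 6, -1.94 (SE 0.076, adjusted p = 4.34e-09), with 25.7% of Pro left. Mcm7 had the highest level of the subunits at every stage, with 338 ± 29.6 in Pro, then 209 ± 19.3 in Baso and 137 ± 8.87 in Poly, and 70.6 ± 13.2 in Ortho and a change of -2.26. Mcm4 averaged 149 ± 9.29 in Pro, then 89.8 ± 11.1 in Baso and 53.7 ± 1.81 in Poly, and 30.4 ± 0.377 in Ortho with a change of -2.25. Mcm6, with 3 E2F words, averaged 235 ± 29.4 in Pro, then 129 ± 10.7 in Baso and 90.8 ± 5.17 in Poly, and 55.3 ± 3.21 in Ortho with a change of -2.06. Mcm3 averaged 169.6 ± 12.3 in Pro, then 92.9 ± 10.6 in Baso and 61.5 ± 1.29 in Poly, and 40.9 ± 1.06 in Ortho with a change of -2.02. The highest subunit stood 2.28 times above the lowest in Pro and 2.32 times in Ortho, a similar spread among subunits at both ends.

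Genes of helicase activation fell less, with a median of -1.596 from Pro to Ortho and 7 of 8 called lower. The GINS complex and Cdc45 travel with MCM as the active helicase. Gins1 (chr2:150905400-150931280, plus strand) fell most and measured 65.9, 61.95 and 57.9 in Pro, then 36.02, 39.6 and 44.8 in Baso and 22.1, 22.2 and 22.9 in Poly, and 12.2, 12.3 and 13.5 in Ortho. All stages were separate, and the change to Ortho was -2.201 (SE 0.086, adjusted p = 4.34e-09). The other GINS subunits were lower as well. Gins4 averaged 68.8 ± 7.56 in Pro, then 47.9 ± 4.56 in Baso and 37.5 ± 1.92 in Poly, and 18.6 ± 1.39 in Ortho with a change of -1.83, and Gins3 averaged 17.7 ± 0.675 in Pro, then 13.1 ± 1.97 in Baso and 11.6 ± 0.405 in Poly, and 5.601 ± 0.159 in Ortho with a change of -1.502. Gins2 averaged 30.6 ± 7.102 in Pro, then 14.4 ± 3.88 in Baso and 13.2 ± 3.09 in Poly, and 8.34 ± 0.983 in Ortho with a change of -1.74, and 67.3% of its exonic bases overlap Gse1 on the other strand. Cdc45 averaged 58.4 ± 4.42 in Pro, then 43.9 ± 2.22 in Baso and 38.1 ± 1.04 in Poly, and 23.04 ± 1.93 in Ortho with a change of -1.31, which without hemoglobin genes was -0.83 and no longer called. Mcm10, which helps to start the fork, averaged 47.6 ± 3.38 in Pro, then 30.8 ± 3.66 in Baso and 25.7 ± 11.6 in Poly, and 14.2 ± 2.86 in Ortho with a change of -1.69, and Poly library 3 at 39.2 stood above the other Poly libraries at 18.6 and 19.4.

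The 2 genes of the kinase that fires origins had no stage mean clearly below Pro until Ortho, although with equal sums in all libraries Cdc7 was at -0.15 in Baso and -0.14 in Poly against Pro, neither past the test. Cdc7 (chr5:106964322-106984432, plus strand), the catalytic subunit, measured 24.7, 16.3 and 17.2 in Pro, then 17.9, 21.5 and 18.8 in Baso and 18.1, 20.9 and 19.7 in Poly, and 8.62, 10.8 and 9.32 in Ortho. Pro, Baso and Poly libraries overlapped throughout, and the Ortho libraries were all lower. The difference from Pro was 0.02 in Baso (95% interval -0.29 to 0.34) and 0.03 in Poly, and the change from Poly to Ortho was -0.96 (adjusted p = 0.000302). From Pro to Ortho it was -0.93 (SE 0.14, adjusted p = 0.000103), just under the fold for a call. It was called without Pro library 2 (-1.04), Pro library 3 (-1.003) or Ortho library 2 (-1.01), and with equal sums in all libraries (-1.27). Dbf4, the activating subunit of Cdc7, measured 40.8, 45.3 and 43.8 in Pro, then 46.9, 51.4 and 49.9 in Baso and 56.2, 55.4 and 54.6 in Poly, and 19.6, 20.5 and 17.4 in Ortho. Its Baso and Poly libraries lay above all Pro libraries. It was higher than in Pro by 0.19 in Baso (adjusted p = 0.0495) and by 0.35 in Poly (adjusted p = 0.00146), then fell by 1.49 to Ortho (adjusted p = 7.16e-08). With equal sums in all libraries both differences of Dbf4 from Pro missed the test, at 0.0099 in Baso (adjusted p = 0.914) and 0.17 in Poly (adjusted p = 0.0504). Dbf4 stage means were 43.3 ± 2.3004 in Pro, then 49.4 ± 2.25 in Baso and 55.4 ± 0.804 in Poly, and 19.2 ± 1.58 in Ortho, and the change from Pro to Ortho was -1.14. Without hemoglobin genes this change was -0.66 and no longer called.

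**Figure D3:**
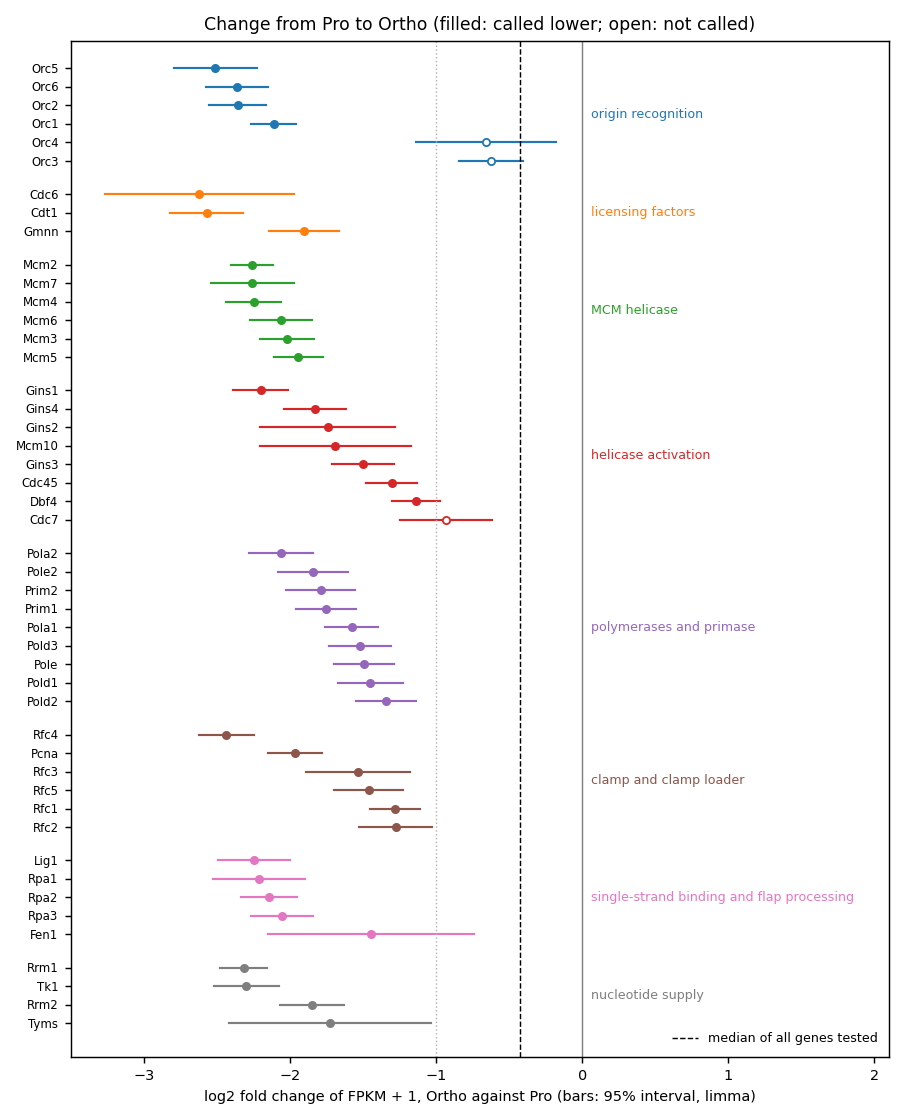
Log2 fold change of FPKM + 1 from Pro to Ortho (horizontal axis) for each of the 47 genes (vertical axis), grouped by role, with 95% intervals from limma. Filled points were called lower and the 3 open points (Orc3, Orc4 and Cdc7) were not; the dashed line is the median of all genes tested, -0.42, and Cdc6 lies farthest to the left at -2.62.

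All 9 genes of the replicative polymerases and primase were called lower from Pro to Ortho, within a narrow range from -2.06 to -1.34 and with a median of -1.58. Polymerase alpha with primase starts each strand, polymerase epsilon copies the leading strand and polymerase delta the lagging strand. Pola2 (chr19:5940542-5964202, minus strand), a subunit of polymerase alpha, fell most and measured 69.1, 68.2 and 70.5 in Pro, then 31.96, 40.9 and 43.9 in Baso and 25.95, 28.6 and 28.7 in Poly, and 15.7, 15.99 and 15.7 in Ortho. All 4 stages were separate, and the change was -2.06 (SE 0.101, adjusted p = 1.65e-08). Pola1, the catalytic subunit of the same enzyme, averaged 32.3 ± 2.91 in Pro, then 25.7 ± 1.78 in Baso and 22.4 ± 1.03 in Poly, and 10.1 ± 0.408 in Ortho with a change of -1.58, and its step from Poly to Ortho was -1.07. The primase subunits fell alongside. Prim1 averaged 71.1 ± 3.53 in Pro, then 48.6 ± 5.11 in Baso and 43.96 ± 1.28 in Poly, and 20.4 ± 2.14 in Ortho with a change of -1.76, and Prim2 averaged 44.1 ± 5.25 in Pro, then 32.3 ± 3.36 in Baso and 21.9 ± 2.41 in Poly, and 11.97 ± 0.385 in Ortho with a change of -1.79. For polymerase epsilon, Pole averaged 23.7 ± 0.232 in Pro, then 14.3 ± 1.03 in Baso and 12.97 ± 1.5995 in Poly, and 7.79 ± 0.477 in Ortho with a change of -1.49, and Pole2 averaged 34.4 ± 3.73 in Pro, then 23.7 ± 3.31 in Baso and 16.3 ± 0.996 in Poly, and 8.84 ± 0.564 in Ortho with a change of -1.84. Of polymerase delta, the catalytic subunit Pold1 averaged 93.5 ± 8.03 in Pro, then 65.9 ± 9.31 in Baso and 50.2 ± 1.66 in Poly, and 33.5 ± 1.48 in Ortho with a change of -1.45, and Pold3 averaged 49.97 ± 2.21 in Pro, then 33.4 ± 5.39 in Baso and 28.4 ± 0.288 in Poly, and 16.7 ± 0.584 in Ortho with a change of -1.52. Pold2 (chr11:5872180-5878292, minus strand), an accessory subunit of polymerase delta, measured 50.1, 44.8 and 42.3 in Pro, then 20.01, 21.3 and 20.2 in Baso and 29.2, 25.7 and 23.3 in Poly, and 16.6, 18.8 and 16.8 in Ortho. Its Poly libraries were all above its Baso libraries, an order no other polymerase gene had. It fell by 1.12 from Pro to Baso (adjusted p = 3.98e-06), was 0.33 higher in Poly than in Baso (adjusted p = 0.04502) and ended with a change of -1.34 from Pro (SE 0.094, adjusted p = 1.8e-07). With equal sums in all libraries the difference of Poly from Baso had an adjusted p of 0.0627. Without hemoglobin genes the changes of Pold2 (-0.87) and Pold1 (-0.97) to Ortho were no longer called, nor was that of Pold2 to Baso (-0.81).

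The sliding clamp and its loader were all called lower in Ortho, with a median of -1.502. Pcna (chr2:132249162-132253314, minus strand) encodes the ring that holds polymerases on DNA and had the highest FPKM of all members in Pro, Baso and Ortho. It measured 639, 705 and 627 in Pro, then 448, 477 and 541 in Baso and 401, 362 and 394 in Poly, and 174, 164 and 163 in Ortho, and no stage overlapped another. The annotation names 2 Pcna pseudogenes, so reads shared with them could be split by the counting. Pcna fell by 1.97 to Ortho (SE 0.084, adjusted p = 6.99e-09), and its step from Poly to Ortho was -1.199. Rfc4 (chr16:23113943-23127737, minus strand) belongs to the loader that opens the ring, and it fell most in this group, with 106, 96.5 and 96.4 in Pro, then 46.9, 58.3 and 55.9 in Baso and 31.8, 33.2 and 34.4 in Poly, and 17.7, 16.8 and 18.2 in Ortho. The change was -2.44 (SE 0.085, adjusted p = 2.43e-09). Rfc2 (chr5:134581366-134601805, plus strand), a subunit of the same loader, fell least, with 75.5, 67.5 and 65.8 in Pro, then 39.9, 52.9 and 52.4 in Baso and 37.5, 36.9 and 34.2 in Poly, and 25.5, 27.9 and 31.3 in Ortho and a change of -1.28 (SE 0.11, adjusted p = 1.22e-06). Stages were again separate for both genes, but Rfc4 kept 17.6% and Rfc2 kept 40.5% of the Pro mean in Ortho. On the other strand, Eif4a2 overlaps 12.7% of the exonic bases of Rfc4 and Lat2 overlaps 15.1% of those of Rfc2. Rfc1, the large subunit, averaged 36.2 ± 3.12 in Pro, then 26.4 ± 1.03 in Baso and 22.5 ± 1.35 in Poly, and 14.3 ± 0.4601 in Ortho with a change of -1.28. Rfc3 averaged 46.5 ± 9.92 in Pro, then 27.3 ± 4.04 in Baso and 18.9 ± 2.19 in Poly, and 15.2 ± 2.23 in Ortho with a change of -1.54, and Rfc5 averaged 35.1 ± 4.44 in Pro, then 19.7 ± 1.67 in Baso and 16.6 ± 0.498 in Poly, and 12.1 ± 1.297 in Ortho with a change of -1.46. Without hemoglobin genes, Rfc1 (-0.81), Rfc2 (-0.79) and Rfc5 (-0.99) were no longer called.

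The 3 genes of replication protein A, which coats single-stranded DNA, fell by similar amounts. Rpa1 averaged 86.3 ± 4.61 in Pro, then 57.2 ± 5.12 in Baso and 41.3 ± 10.03 in Poly, and 17.9 ± 1.01 in Ortho with a change of -2.21, Rpa2 averaged 110.5 ± 13.3 in Pro, then 54.8 ± 3.86 in Baso and 44.1 ± 1.76 in Poly, and 24.1 ± 0.588 in Ortho with a change of -2.15, and Rpa3 averaged 90.3 ± 10.5 in Pro, then 48.8 ± 1.19 in Baso and 41.3 ± 3.67 in Poly, and 20.9 ± 1.59 in Ortho with a change of -2.06. Lig1 (chr7:13277283-13311433, plus strand) encodes the ligase that seals Okazaki fragments. It measured 212, 169 and 156 in Pro, then 106, 123 and 129 in Baso and 80.2, 73.4 and 77.4 in Poly, and 38.9, 36.6 and 34.3 in Ortho, with no overlap between stages and a change of -2.25 (SE 0.11, adjusted p = 2.02e-08). Fen1 (chr19:10199132-10204169, minus strand), the flap nuclease that acts just before the ligase, measured 76.4, 58.2 and 62.2 in Pro, then 93.7, 105 and 111 in Baso and 30.99, 70.4 and 34.8 in Poly, and 30.7, 29.9 and 13.6 in Ortho. All Baso libraries were above all Pro libraries, Poly library 2 stood far above the other Poly libraries, and Ortho library 3 far below the other Ortho libraries. The difference from Pro was 0.65 in Baso (adjusted p = 0.105), and Fen1 fell by 1.26 from Baso to Poly (adjusted p = 0.0303). That call was lost without any 1 of Baso libraries 1 to 3 or Poly libraries 1 and 3, with changes from -1.33 to -1.04. The change from Pro to Ortho was -1.45 (SE 0.32, adjusted p = 0.00154). Without hemoglobin genes it was -0.97 and no longer called, and the difference of Baso from Pro was 0.96 (adjusted p = 0.0286). Of the exonic bases of Fen1, 78.8% overlap Gm10143 on the other strand, so reads of the 2 genes cannot be told apart without strand. The median of the 5 genes was -2.15, and all 5 were called lower in Ortho.

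The 4 genes of nucleotide supply had their largest step last, from Poly to Ortho. They had a median of -0.35 in Poly against Pro, with 1 of 4, Rrm1, called lower (not without hemoglobin genes, -0.69), and all 4 were called lower from Poly to Ortho, with a median of -1.66. Their summed FPKM was 978 ± 53.5 in Pro, then 886 ± 69.04 in Baso and 794 ± 16.2 in Poly, and 233 ± 14.2 in Ortho. Rrm2 (chr12:24708241-24714146, plus strand) is the small subunit of ribonucleotide reductase, which makes deoxyribonucleotides, and its protein is known to be made in S phase. It measured 408, 505 and 411 in Pro, then 430.02, 466 and 529 in Baso and 466, 456 and 479.7 in Poly, and 116, 119 and 128 in Ortho. Pro, Baso and Poly overlapped, and every Ortho library was below all of them. The difference from Pro was 0.09 in Poly (95% interval -0.13 to 0.31), and the change from Poly to Ortho was -1.94 (adjusted p = 8.41e-08), the largest of all members at that step. From Pro to Ortho the change was -1.85 (SE 0.099, adjusted p = 2.94e-08). Rrm1 (chr7:102441695-102469771, plus strand), the large subunit, measured 267, 253 and 245 in Pro, then 158, 167 and 189 in Baso and 122, 120.2 and 128 in Poly, and 49.7, 49.8 and 51.3 in Ortho. It fell at each step with no overlap, by 2.32 to Ortho (SE 0.073, adjusted p = 1.69e-09). Tk1, the thymidine kinase of dividing cells, averaged 224 ± 13.7 in Pro, then 189.7 ± 17.6 in Baso and 154 ± 17.2 in Poly, and 44.6 ± 3.83 in Ortho with a change of -2.301, and its step from Poly to Ortho was -1.76. Tyms (chr5:30058202-30073617, minus strand), thymidylate synthase, measured 71.9, 65.4 and 35.96 in Pro, then 59.3, 56.1 and 32.03 in Baso and 41.2, 49.9 and 57.8 in Poly, and 10.4, 20.7 and 18.9 in Ortho. Replicate 3 was the lowest library in Pro and in Baso but the highest in Poly, and the first 3 stages overlapped. The change to Ortho was -1.73 (SE 0.32, adjusted p = 0.000384). The annotation names 1 Tyms pseudogene.

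The ratio of FPKM within libraries separated some of the stages for most pairs of genes shown, but not for Cdc6 to Cdt1. The pairs described here were chosen after their values were seen, and their ratios are given with no test. Rrm2 to Rrm1 was 1.74 ± 0.242 in Pro, then 2.77 ± 0.0457 in Baso and 3.79 ± 0.0277 in Poly, and 2.41 ± 0.0795 in Ortho (mean ± SD, n = 3), so that the ratio in every Poly library was above that in every other library. Cdt1 to Gmnn was 1.03 ± 0.0284 in Pro, then 0.794 ± 0.0438 in Baso and 0.524 ± 0.04098 in Poly, and 0.638 ± 0.0276 in Ortho, with the lowest libraries in Poly. Orc1 to Orc2 was 0.4801 ± 0.0241 in Pro, then 1.1000 ± 0.0824 in Baso and 1.01 ± 0.107 in Poly, and 0.541 ± 0.0817 in Ortho, and the Baso and Poly libraries were above all of Pro and Ortho. Dbf4 to Cdc7 was 2.32 ± 0.596 in Pro, then 2.55 ± 0.144 in Baso and 2.84 ± 0.2398 in Poly, and 2.01 ± 0.223 in Ortho. Pro library 1 at 1.65 was the lowest, and the Pro libraries overlapped those of each other stage. All Ortho libraries lay below those of Baso and Poly, and the highest Baso and lowest Poly library nearly met at 2.65. Fen1 to Lig1 was 0.368 ± 0.0273 in Pro, then 0.865 ± 0.0169 in Baso and 0.598 ± 0.314 in Poly, and 0.667 ± 0.236 in Ortho, and the spread in Poly and Ortho came with the uneven Fen1 values given above. Cdc6 to Cdt1 was 0.7305 ± 0.257 in Pro, then 0.807 ± 0.181 in Baso and 0.886 ± 0.26997 in Poly, and 0.663 ± 0.124 in Ortho, and all 4 stages overlapped.

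**Figure D4:**
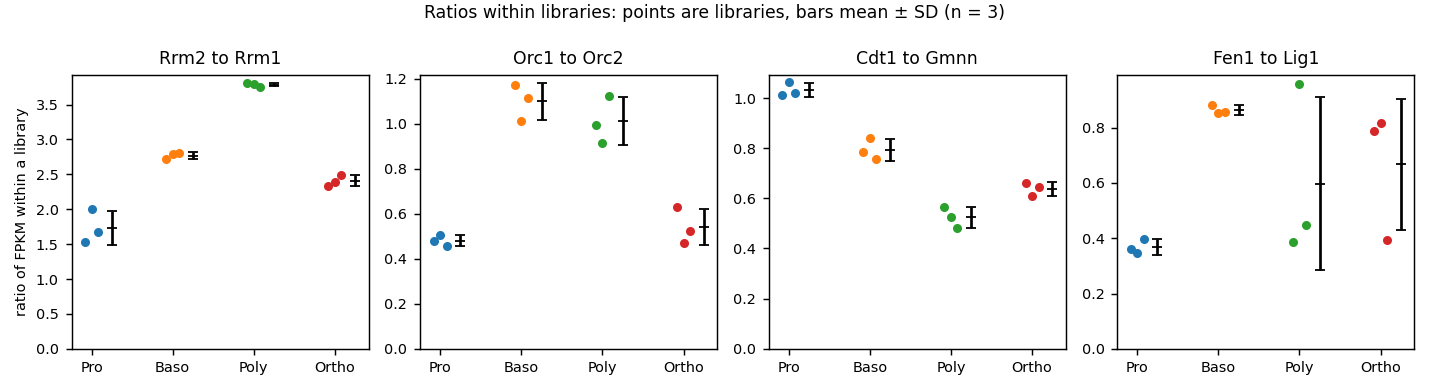
Ratio of the FPKM of 2 genes in the same library (vertical axis, starting at 0) in the 4 stages (horizontal axis), for Rrm2 to Rrm1, Orc1 to Orc2, Cdt1 to Gmnn and Fen1 to Lig1. Coloured points are libraries and black bars are mean ± SD (n = 3); Rrm2 to Rrm1 rises to 3.79 in Poly and is 2.41 in Ortho, and Cdt1 to Gmnn is lowest in Poly at 0.524.

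A further 41 genes of replication that are not members, all of them tested, were compared in the same way. They cover accessory polymerase subunits, fork protection, chromatin assembly, origin firing, nucleotide metabolism and the ubiquitin ligases that act on Cdt1. Of these, 5 (12.2%) were called lower in Baso, 13 (31.7%) in Poly and 29 (70.7%) in Ortho against Pro. For all genes tested these shares were 8.54%, 12.8% and 23.8%. None was called lower from Baso to Poly and 10 (24.4%) were from Poly to Ortho, against 0.454% and 4.81% of all genes. None was called higher, where the shares of all genes were those given above. Their median change from Pro to Ortho was -1.42, beside -0.42 for all genes tested. The 3 with the largest fall were Recql4, a helicase needed for origin firing, Dscc1, a subunit of an alternative clamp loader, and Wdhd1, which links polymerase alpha to the helicase. Recql4 averaged 29.2 ± 1.13 in Pro, then 11.3 ± 2.17 in Baso and 7.004 ± 0.234 in Poly, and 3.42 ± 0.257 in Ortho with a change of -2.78 (adjusted p = 5.52e-09). Dscc1 averaged 26.1 ± 5.01 in Pro, then 10.9 ± 1.35 in Baso and 6.61 ± 0.6097 in Poly, and 4.11 ± 0.332 in Ortho with a change of -2.39 (adjusted p = 3.63e-08), and Wdhd1 averaged 96.6 ± 26.1 in Pro, then 65.4 ± 6.25 in Baso and 51.9 ± 0.121 in Poly, and 17.8 ± 0.8996 in Ortho with a change of -2.34 (adjusted p = 9.83e-08).

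The other end of this list held genes with a higher level in Ortho than in Pro, at adjusted p alone and short of the fold for a call. Pold4, the smallest subunit of polymerase delta, averaged 10.5 ± 0.817 in Pro, then 13.3 ± 1.69 in Baso and 17.2 ± 1.95 in Poly, and 19.9 ± 1.81 in Ortho, a difference of 0.85 (adjusted p = 3.2e-05), while the member subunits Pold1, Pold2 and Pold3 of the same enzyme were lower. Of its exonic bases, 24.6% overlap another annotated gene on the same strand. Rrm2b, a small subunit of ribonucleotide reductase used outside S phase, averaged 3.27 ± 0.964 in Pro, then 3.002 ± 0.347 in Baso and 5.43 ± 1.22 in Poly, and 5.62 ± 0.571 in Ortho, a difference of 0.65 (adjusted p = 0.00433). Its FPKM in Ortho was still far below the 121 of Rrm2. Samhd1, which degrades deoxyribonucleotides, averaged 46.4 ± 4.74 in Pro, then 49.1 ± 7.802 in Baso and 65.1 ± 4.5997 in Poly, and 69.6 ± 9.64 in Ortho, a difference of 0.57 (adjusted p = 0.00183). Without hemoglobin genes the 3 differences were 1.31, 1.04 and 1.05, each then past the fold for a call. With equal sums in all libraries they were 0.51, 0.35 and 0.21 (adjusted p = 0.000752, 0.0678 and 0.211). Rrm2b and Samhd1 thus missed the test in that setting. Markers of other cells moved with the stages, and the part of such cells in these 3 differences was not tested.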

How the data were processed

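RNA was sequenced from 4 sorted stages of mouse bone marrow erythroblasts, 3 libraries a stage. The authors removed adaptors with cutadapt and low-quality sequence with Trimmomatic, aligned the reads to mm10 with HISAT2, collected them with SAMtools, counted them with featureCounts and deposited 1 FPKM per gene and library. The annotation, the tool that gave the FPKM, its strand setting and the versions are not given in the sources used here. The paper and the labels name different extraction and library kits. After removal of 1 repeated identifier the table held 29838 genes. FPKM summed to between 505624 and 691033 in a library, and 11964 to 12297 genes reached 1. Low values showed no steps of whole reads (at most 8.24% of ratios shared a bin of 0.1), so depth and counting error are unknown, and the precision is that of the spread between 3 libraries.

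Log2(FPKM + 1) was fitted with limma 3.58.1 (R 4.3.3) over all 12 libraries, with a variance trend, for the 12994 genes that reached 1 FPKM in 3 or more libraries. The tests were two-sided, with Benjamini-Hochberg adjustment over these genes in each of 5 comparisons. The authors' count model was not used, since FPKM are not counts. The fit was tested on simulated data. Tables and figures were made with Python 3.11.15 and matplotlib 3.10.9, gene positions and overlaps came from GENCODE M21 on mm10, and promoters from RefSeq. The 47 members and the other lists were chosen with earlier results of these data known. A marker gene of the late erythroid list is not reported here and is left out of its sum. Every member is named. The values of every library are given for Mcm2, Cdc6, Cdt1, Gmnn, Pcna and Rrm2 and for the lowest and highest change from Pro to Ortho in each of the 8 groups, and of the 41 other genes the 3 lowest and the 3 highest are named. Values of every library for Dbf4 were added after they were seen. Deviations of same-numbered libraries from their stage means correlated at 0.156 to 0.319 between Baso, Poly and Ortho, and were taken to pair by number there, from the values alone and not from the labels, and at 0.00524 to 0.0968 with Pro. Alternatives were other pseudocounts, filters and scalings, a replicate block, no variance trend, only the stages compared, and each library left out.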

Additional observations from a re-analysis of the deposited data

How the results depend on the processing

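All 47 members stayed below 0 from Pro to Ortho under every alternative run, and 36 to 46 of them were called lower (47 with no minimum fold). The share of all genes called lower ranged from 8.84% to 37.3% (53.2% with no minimum fold). The replicate block, which pairs libraries by number, left the counts of members called lower at 3, 22, 44, 1 and 15 (Baso, Poly and Ortho against Pro, Poly against Baso, Ortho against Poly) and changed no member's call, nor did a block over Baso, Poly and Ortho alone. The counts of members called lower depended mostly on the scale and the minimum fold. In Baso against Pro, 3 became 0 with a pseudocount of 5, without hemoglobin genes or with each library centred on its median, 12 with equal sums in all libraries and 38 with no minimum fold. In the same order the share of all genes called lower went from 8.54% to 3.49%, 3.22%, 3.15%, 14% and 42.1%. In Poly against Pro, 22 became 9 without hemoglobin genes, 13 with median centring, 29 with equal sums and 41 with no minimum fold. All genes went from 12.8% to 5.68%, 7.12%, 18.6% and 42.7% called lower in these settings. In Poly against Baso, 1 became 0 with no filter and 24 with no minimum fold, where all genes went from 0.454% to 0.168% and 5.77%. In Ortho against Poly, 15 became 11 without hemoglobin genes or with a pseudocount of 5, 10 with median centring, 24 at equal sums and 42 with no minimum fold. There all genes went from 4.81% to 3.6%, 2.76%, 3.36%, 6.84% and 21.7%. With no minimum fold, 1 member was higher in Baso against Pro, 1 in Poly against Pro and 1 in Poly against Baso. The cause of these moves was not tested beyond the construction of each setting.

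With 1 library left out, the counts ranged from 2 to 5 in Baso against Pro (5 without Baso library 3), from 20 to 23 in Poly and from 44 to 45 in Ortho against Pro, from 0 to 1 in Poly against Baso (0 without Baso library 1, 2 or 3 or Poly library 1 or 3) and from 15 to 17 in Ortho against Poly. For all genes the shares ranged from 7.17% to 10.2%, 12.4% to 14.3%, 23.2% to 25%, 0.309% to 0.533% and 4.71% to 5.04%. In Baso against Pro, Gins2 lost its call without Pro library 1 (-0.87) or Baso library 1 (-0.98) or 2 (-0.91), Orc5 gained one without Baso library 3 (-1.04), and Rpa2 gained one without Pro library 2 or 3 or Baso library 2 or 3 (-1.07 to -1.01). In Poly against Pro, calls were lost for Gins2 without Pro library 1 (-0.98) or Poly library 3 (-0.97), Pole2 without Pro library 1 (-0.96) or Poly library 2 (-0.99), Rfc5 without Pro library 2 (-0.99) or 3 (-0.96) and Rpa1 without Poly library 2 (-0.88), and gained for Mcm10 without Poly library 3 (-1.28) and Prim2 without Pro library 1 (-1.07) or Poly library 1 (-1.06). From Poly to Ortho, calls were lost for Cdc6 without Ortho library 2 (-0.97), Prim1 without Ortho library 3 (-0.99) and Rpa1 without Poly library 1 (-0.98), and gained for Mcm7 without Ortho library 1 (-1.02) or 2 (-1.06), Gins4 without Poly library 2 (-1.01) or Ortho library 3 (-1.03), Cdc7 without Poly library 1 (-1.02) or Ortho library 2 (-1.04), Rpa3 without Poly library 2 (-1.01) and Fen1 without Poly library 1 (-1.06).

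Small values changed sign, none of them a call and none from Pro to Ortho. These settings were added for the other comparisons after the data were seen. At equal sums, Orc1 (-0.11), Cdc7 (-0.15) and Rrm2 (-0.072) were lower in Baso than in Pro, and Cdc7 (-0.14) and Rrm2 (-0.092) lower in Poly. Without hemoglobin genes, Orc4 (0.038), Tyms (0.092) and Tk1 (0.077) were higher in Baso and Tyms (0.17) in Poly than in Pro, and Rrm2 (0.013) was higher in Poly than in Baso. With median centring, Orc4 (0.040), Tyms (0.079) and Tk1 (0.058) were higher in Baso and Tyms (0.080) in Poly than in Pro, and Cdc7 (-0.037) was lower in Poly than in Baso. Leaving out 1 library moved Cdc7 between -0.086 and 0.20 in Baso and between -0.074 and 0.21 in Poly against Pro, and Tyms between -0.52 and 0.058 in Baso and -0.47 and 0.018 in Poly. In Poly against Baso it moved Orc4 between -0.21 and 0.042, Gins2 between -0.25 and 0.086, Cdc7 between -0.042 and 0.084, Rrm2 between -0.089 and 0.061 and Tyms between -0.23 and 0.21. Depth is unknown and sets no limit that could be given here.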
